A study of Mus musculus with 2 samples.

Results

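The neuropeptide and peptide hormone genes described here are 37 genes that encode the precursors of secreted signalling peptides of the gut, brain, pituitary, heart and parathyroid gland. They were taken from a named list, each was found in both deposited tables, and together they are 37 of 23123 gene symbols. Cells were medullary thymic epithelial cells (mTEC) sorted by their surface MHC class II from thymi of wild-type (WT) B6 mice, which were pooled, with no treatment, further allele or age named. The MHC-II-high cells, called mTEChi, and the MHC-II-low cells, called mTEClo, gave 1 library of poly(A) RNA each. Reads were paired and 100 bases long for mTEChi, and single and 50 bases long for mTEClo, so read type and group cannot be told apart. With 1 library per group there is no replicate check and no test, and every value describes these libraries.

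Peptide hormones and neuropeptides are cut from larger precursor proteins inside secretory granules, often amidated, and then act on receptors of other cells, most of them G protein-coupled. In the body each precursor is made mainly by a few specialised cells, such as enteroendocrine cells of the gut or neurons of the hypothalamus. mTEC transcribe many genes of other organs, in part under the regulator Aire, and so display their peptides to developing T cells. The comparison addresses which of these precursors are transcribed in mature, MHC-II-high mTEC and which in the MHC-II-low population.

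All 37 genes were listed above 0 in mTEChi, where 9.14% of all deposited transcript lines were at 0. In mTEClo, 17 of these genes were above 0 and 20 were listed at 0, beside 25.7% of all coding genes at 0 there. Their RPKM values (reads per kilobase of transcript, scaled to library depth, a level that can be compared between genes) added up to 871 in mTEChi and 223 in mTEClo. The median gene of the group had 12.6 RPKM in mTEChi, where the median of all genes was 2.33 RPKM, and it was listed at 0 in mTEClo, where the median of all genes was 1.67 RPKM. At 10 RPKM or more there were 22 of the 37 genes in mTEChi and 4 in mTEClo. The lowest of the 22, Ghrl, stood above 78.9% of all genes in mTEChi. The lowest of the 4, Calca, stood above 80.8% of all genes in mTEClo. As deposited, before any scaling, 35 genes had the higher RPKM in mTEChi, and 2 genes, Adm and Insl5, had the lower. Of all 20868 genes above 0 in a library, 70.5% had the higher deposited value in mTEChi.

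Levels were uneven within the group. Calcb, Adm, Calca and Grp were the 4 highest genes in each library, and they held 45.2% of the summed RPKM in mTEChi and 82.1% in mTEClo. Calcb, at 164 RPKM in mTEChi, stood above 98.8% of all genes there. At the other end, Galp had 0.429, Hcrt 0.537, Ucn 0.717 and Nmu 0.874 RPKM in mTEChi, and all 4 were listed at 0 in mTEClo. These 4 did not reach a mean of 0.5 RPKM over the libraries and were left out of the counts of changes, which rest on 33 genes.

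**Figure D1:**
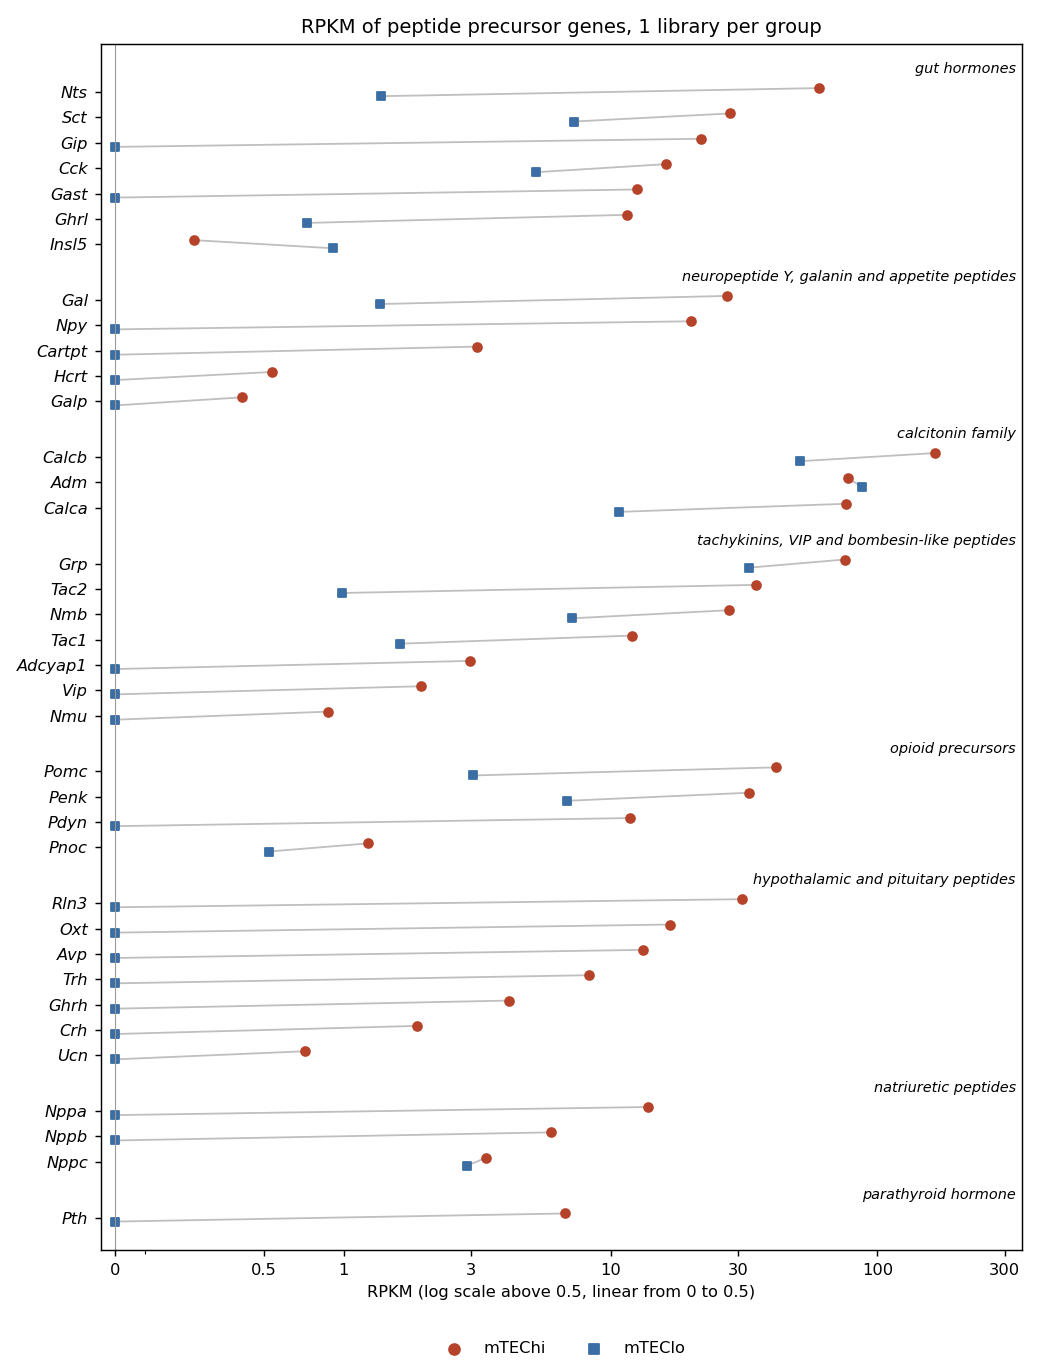
RPKM of each of the 37 genes in mTEChi (circles) and mTEClo (squares), 1 library each, grouped by role; the axis is logarithmic above 0.5 RPKM and linear below. The squares of 20 genes lie at 0, all circles lie above 0, and Adm and Insl5 are the genes whose circle lies left of its square.

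Changes were taken as log2((mTEChi + 1)/(mTEClo x 1.21 + 1)) of RPKM, where 1.21 sets the median log2 ratio of well-expressed genes to 0. Of the 33 kept genes, 28 were at least 2-fold higher in mTEChi, 0 were 2-fold lower and 5 lay between. Across all 15590 kept genes 16.1% were 2-fold higher and 9.35% 2-fold lower. A kept gene at 0 in mTEClo is past 2-fold by construction, which holds for 16 of the 28. Among the 17 genes above 0 in both libraries, 12 were 2-fold higher and 0 lower, against 11.4% higher and 9.85% lower among all 14757 such genes. The median log2 change of those 17 was 1.57, beside -0.02 for all such genes. In bulk RNA, fewer cells that express a gene and less RNA per cell cannot be told apart.

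**Figure D2:**
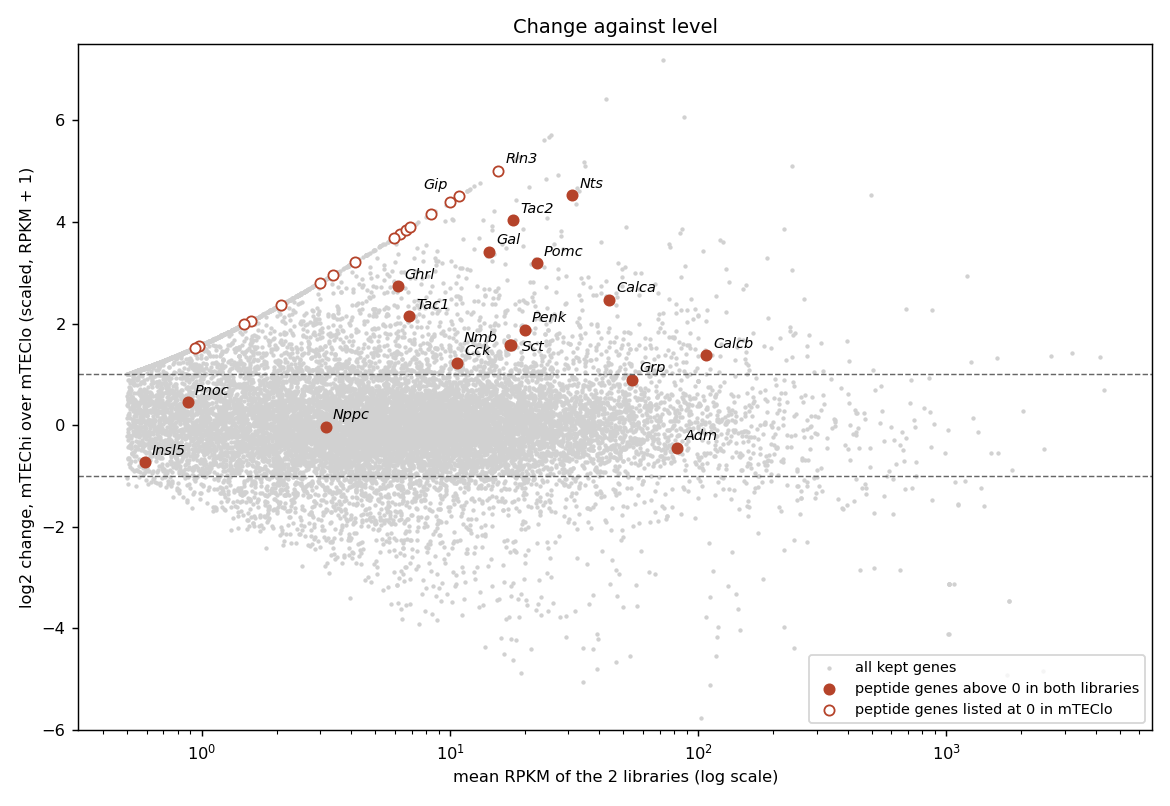
Log2 change (mTEChi over scaled mTEClo, RPKM + 1) against mean RPKM on a log axis for all kept genes (grey) and the 33 kept peptide genes (red; open where mTEClo is listed at 0); dashed lines mark 2-fold. Open points lie on the upper edge, which the pseudocount fixes, while the 12 filled points above the upper line, among them Nts, Tac2, Gal and Pomc, have reads in both libraries.

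Among gut hormone genes, all but Insl5 had the higher level in mTEChi, and Gip and Gast were listed at 0 in mTEClo. Nts, the precursor of neurotensin, a peptide of the small intestine and brain, had 60.6 RPKM in mTEChi against 1.38 RPKM in mTEClo. These values stand for about 8666 and 36 reads, by a depth recovered from the values, and the log2 change was 4.53. The log2 ratio without the pseudocount was 5.18, with a counting interval (95%, exact) from 4.72 to 5.70 that covers counting error only. Nts was thus far higher in mTEChi, the largest change among the 17 genes above 0 in both libraries. Ghrl, the precursor of the stomach hunger hormone ghrelin, had 11.6 RPKM in mTEChi and 0.727 RPKM in mTEClo (log2 change 2.74), the mTEClo value resting on 8 reads. Of its 50-base words, 15.1% also occur in an annotated transcript of another locus, Gm44033.

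Sct, which encodes secretin, the duodenal hormone that triggers bicarbonate secretion, had 28.1 RPKM in mTEChi and 7.27 RPKM in mTEClo (1.57). Cck, the precursor of cholecystokinin, which empties the gallbladder, had 16.2 RPKM in mTEChi and 5.23 RPKM in mTEClo (1.23, or 0.90 and within 2-fold with a pseudocount of 5 RPKM). Transcripts of both genes were therefore found in mTEClo as well, at 77 and 76 recovered reads. Gip, an incretin precursor of duodenal K cells, had 21.8 RPKM in mTEChi and was listed at 0 in mTEClo. Gast, the precursor of the acid-releasing hormone gastrin, had 12.6 RPKM in mTEChi and was also listed at 0 in mTEClo. Insl5, a relaxin-family peptide of colonic L cells, went the other way, with 0.267 RPKM in mTEChi and 0.908 RPKM in mTEClo. Its log2 change of -0.73 lay within 2-fold, and it was -1.71 with a pseudocount of 0.1 RPKM. It rests on 21 and 13 reads, and the log2 ratio without pseudocount had a counting interval from -3.10 to -0.91.

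Of the peptide genes of hypothalamic appetite circuits, 4 of 5 were listed at 0 in mTEClo, beside 25.7% of all coding genes. Gal, the galanin precursor, had 27.3 RPKM in mTEChi and 1.37 RPKM in mTEClo (3.41), and its mTEClo value came from about 23 reads. Npy, the precursor of the appetite-stimulating neuropeptide Y, had 20.04 RPKM in mTEChi and was listed at 0 in mTEClo. Cartpt, whose peptides restrain feeding, had 3.15 RPKM in mTEChi and was listed at 0 in mTEClo, as was its second transcript line with 3.01 RPKM in mTEChi. Gal was therefore the gene of these 5 with reads in both libraries. The orexin precursor Hcrt and the galanin-like peptide gene Galp were close to the lower end in mTEChi. At equal scaled levels, Hcrt and Galp would have had about 5.5 and 4.8 reads in mTEClo.

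The calcitonin family held the highest levels of the whole group and differed between its members. Calcb, which encodes the vasodilator beta-CGRP, had 164 RPKM in mTEChi and 51.4 RPKM in mTEClo, a log2 change of 1.39. Calca, which encodes calcitonin and alpha-CGRP through alternative exons, had 76.4 RPKM in mTEChi and 10.8 RPKM in mTEClo (2.47). The counting intervals of their log2 ratios ran from 1.31 to 1.49 for Calcb and from 2.35 to 2.77 for Calca. They cover counting error only and do not test a difference between these genes. The lines of Calca that carry calcitonin and CGRP gave similar changes. The calcitonin line had 76.4 RPKM in mTEChi and 10.8 RPKM in mTEClo, and the CGRP line had 35.5 RPKM in mTEChi and 4.09 RPKM in mTEClo, with log2 changes of 2.47 and 2.62. They share exons, so their split is uncertain. Calca and Calcb are neighbours on chromosome 7, and 1.2% of the 50-base words of the Calcb transcript also occur in Calca.

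Adm, the precursor of the vasodilator adrenomedullin, was the family member that was not higher, with 77.5 RPKM in mTEChi and 87.5 RPKM in mTEClo. Its log2 change was -0.44, and it stayed below 0 under each scaling tried, at -0.17 unscaled and -0.01 after matching upper quartiles. Adm was the highest of the 37 genes in mTEClo. Endothelial markers moved the other way from most peptide genes, as all 6 were 2-fold lower in mTEChi, with a summed level of 17.1 RPKM in mTEChi and 189 RPKM in mTEClo. Of 7 fibroblast markers 6 were 2-fold lower in mTEChi and 0 higher, and their sum was 34.5 RPKM in mTEChi and 496 RPKM in mTEClo. Of all kept genes, 9.35% were 2-fold lower. No marker of either list was at 0 in a library, and their part in the Adm level was not tested.

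Transcripts of the tachykinin and bombesin-like peptide genes were present in both libraries. Tac2, the neurokinin B precursor, had 35.04 RPKM in mTEChi and 0.984 RPKM in mTEClo (4.04), or about 2722 and 14 reads. Its second line showed 28.0 RPKM in mTEChi and 0.786 RPKM in mTEClo. Tac1, which encodes substance P and neurokinin A, had 12.04 RPKM in mTEChi and 1.62 RPKM in mTEClo (2.14). Both tachykinin genes were thus higher in mTEChi, Tac2 with the larger change. The counting intervals of their log2 ratios ran from 4.13 to 5.75 for Tac2 and from 2.17 to 3.09 for Tac1. These cover counting error only, so the difference between these genes was not tested.

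Nmb, the neuromedin B precursor, had 27.8 RPKM in mTEChi and 7.17 RPKM in mTEClo (1.57), and 17.7% of its 50-base words occur in transcripts of Sec11a, so its level is uncertain without strand. Grp, the gastrin-releasing peptide precursor, had 75.4 RPKM in mTEChi and 33.1 RPKM in mTEClo. Its log2 change of 0.90 lay below 2-fold, and it was above 2-fold without scaling (1.16), with the same RPKM sum (1.04) and with the same upper quartile (1.32). Vip, the precursor of vasoactive intestinal peptide, had 1.94 RPKM in mTEChi and was listed at 0 in mTEClo. Adcyap1, the precursor of its relative PACAP, had 2.97 RPKM in mTEChi and was listed at 0 in mTEClo too.

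Of the 4 opioid precursors, Pomc and Penk were 2-fold higher in mTEChi with reads in both libraries. Pomc, the precursor of ACTH, melanocortins and beta-endorphin, had 41.6 RPKM in mTEChi and 3.04 RPKM in mTEClo, a log2 change of 3.19 from about 4914 and 66 reads. Penk, the enkephalin precursor, had 33.1 RPKM in mTEChi and 6.85 RPKM in mTEClo (1.88), and 7.71% of its 50-base words occur in another locus, A830012C17Rik. Pdyn, the dynorphin precursor, had 11.8 RPKM in mTEChi and was listed at 0 in mTEClo. Pdyn had 3238 recovered reads in mTEChi, the most among the genes at 0 in mTEClo. Pnoc, the nociceptin precursor, was low in both, with 1.23 RPKM in mTEChi and 0.524 RPKM in mTEClo (0.45).

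The 7 hypothalamic, brainstem and posterior pituitary precursors were all above 0 in mTEChi and all listed at 0 in mTEClo, beside 25.7% of all coding genes. Rln3, which encodes relaxin-3 of the brainstem, was the highest with 31.2 RPKM in mTEChi. Oxt, the oxytocin precursor, had 16.7 RPKM and Avp, the vasopressin precursor, 13.2 RPKM in mTEChi. Oxt and Avp are neighbours on chromosome 2, and 15.98% of the 50-base words of Oxt and 14.8% of those of Avp occur in the other gene, so reads can be split between them. The releasing hormone genes followed in mTEChi with 8.31 RPKM for Trh, which drives thyrotropin release, 4.18 RPKM for Ghrh, which drives growth hormone release, and 1.88 RPKM for Crh, which drives ACTH release. The corticotropin-releasing hormone relative Ucn had 0.717 RPKM in mTEChi, and at an equal scaled level it would have had about 6.3 reads in mTEClo. The order of these levels in mTEChi rests on 41 reads for Ucn and 2265 reads for Rln3.

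Among natriuretic peptides, which lower blood volume and pressure or act on bone growth, the cardiac genes and Nppc differed in pattern. Nppa, the atrial natriuretic peptide precursor, had 13.8 RPKM in mTEChi and was listed at 0 in mTEClo. Nppb, its neighbour on chromosome 4 and the B-type precursor, had 5.996 RPKM in mTEChi and was listed at 0 in mTEClo. Of the Nppa words of 50 bases, 53.4% occur in the annotated locus Gm13054, so the level of Nppa is uncertain. Nppc, the C-type precursor, had nearly the same level in both, 3.41 RPKM in mTEChi and 2.89 RPKM in mTEClo. Its log2 change of -0.03 took the other sign under each other scaling (0.08 to 0.30), and its log2 ratio had a counting interval from -0.42 to 0.37.

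Pth, the calcium-regulating hormone precursor of the parathyroid gland, had 6.73 RPKM in mTEChi, from about 547 reads, and was listed at 0 in mTEClo. The parathyroid gland can lie beside or inside the thymus. Of its markers, the regulator Gcm2 had 0.360 RPKM in mTEChi and was listed at 0 in mTEClo, and the calcium sensor Casr had 6.34 RPKM in mTEChi and 4.71 RPKM in mTEClo, a sum of 6.70 RPKM in mTEChi and 4.71 RPKM in mTEClo. Thyroid markers, of interest beside calcitonin, summed to 2.63 RPKM in mTEChi and all 4 were listed at 0 in mTEClo. Markers of neurons and Schwann cells summed to 26.7 RPKM in mTEChi and 12.3 RPKM in mTEClo. Of these 7 markers, 2 were higher and 1 lower, beside 16.1% and 9.35% of all kept genes. Th, among the 2 higher, was at 0 in mTEClo. Their part in the peptide gene levels was not tested.

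The genes listed at 0 in mTEClo were not only low ones. They reached 31.2 RPKM in mTEChi, and if the scaled levels had been equal, 16 of the 20 would have had 20 or more reads in mTEClo and 10 of them 100 or more. For Pdyn that number was 490 reads, for Rln3 343, for Gip 246 and for Npy 197. Of the 32 genes at 1 RPKM or more in mTEChi, 16 (50.0%) were at 0 in mTEClo, against 5.29% of the 13535 coding genes at such a level. Between 10 and 30 RPKM in mTEChi the counts were 7 of 13 peptide genes (53.8%) and 48 of 3382 coding genes (1.42%). Between 100 and 500 expected reads they were 10 of 17 (58.8%) and 187 of 5993 (3.12%), and at 500 or more, 0 of 7 and 9 of 5358 (0.168%).

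Few genes of any kind had 1 to 7 recovered reads in mTEClo. Of 20169 coding genes, 400 had 1 to 7 reads and 5192 were listed at 0. No peptide gene had from 1 to 7 reads, which is near that share, and the lowest above 0 was Ghrl with 8. Rps21, whose ribosomal protein every cell needs, had 144 RPKM in mTEChi and was listed at 0 in mTEClo. A 0 in mTEClo is therefore given here as listed, and no fold change of a single gene is printed for it, while the counts past 2-fold include such genes by construction.

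**Figure D3:**
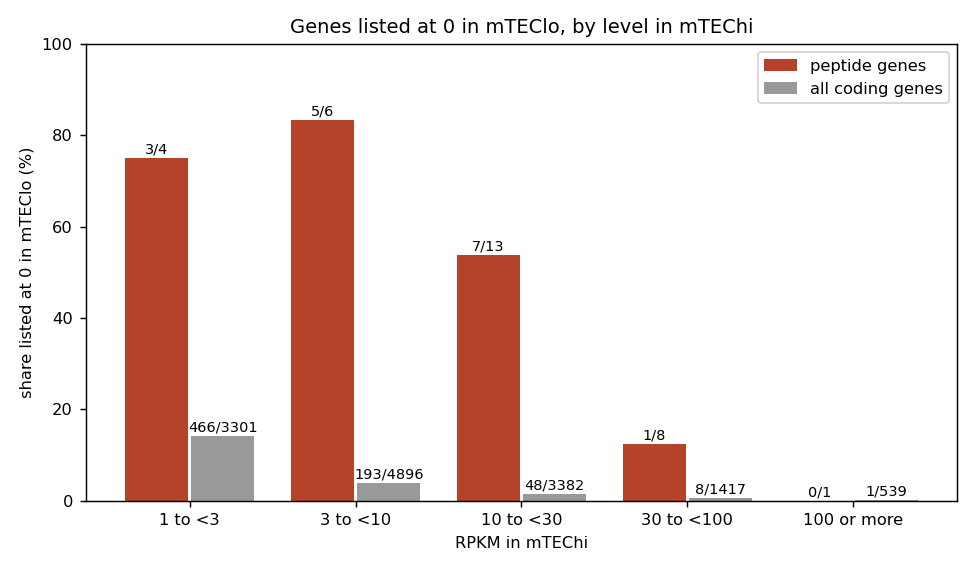
Share (%) of peptide genes (red) and of all coding genes (grey) listed at 0 in mTEClo, by RPKM in mTEChi; fractions above the bars give the counts. The red bar is higher in the 4 lower classes, such as 7 of 13 against 48 of 3382 between 10 and 30 RPKM, and the top class holds 1 peptide gene, Calcb.

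Upstream sequence was examined because most of these genes were higher in the same library. RefSeq promoter windows (GRCm38.p6, a later build than that of the deposited values) were matched by symbol for 32 of the 37 genes, and the 250 bases before the start were searched. Pnoc, Penk, Calcb, Crh and Grp had no window, and all of these but Crh were above 0 in mTEClo. The core promoter word TATAAA, on the gene's strand and beginning 40 to 20 bases before the start, was present in 8 of the 32 genes (25.0%) and in 535 of 17492 coding genes (3.06%). The 8 were Ghrh, Hcrt, Nppb, Nppc, Pomc, Rln3, Sct and Vip, of which 5 were among the 19 genes at 0 in mTEClo and 3 among the 13 above 0. The cyclic AMP response element TGACGTCA, a palindrome, was present in Cartpt and Ucn, 2 of 32 genes (6.25%), against 2.20% of coding genes. Its first 6 letters TGACGT, on either strand and counting those within the whole element, were present in 4 of 32 genes (12.5%), Adcyap1, Cartpt, Ucn and Vip, against 8.43% of coding genes. All 4 were at 0 in mTEClo, as were 19 of the 32 genes searched, and a match is a description of the letters only.

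The last 120 bases before the start follow, 5′ to 3′ on the gene's strand, for 6 of the genes with these words, chosen to show each word and genes above 0 and at 0 in mTEClo, and for Gip and Npy, which have none of them and were also listed at 0 in mTEClo. Capitals mark TATAAA, TGACGTCA or TGACGT.
Vip, chr10:5639098-5639217, plus strand: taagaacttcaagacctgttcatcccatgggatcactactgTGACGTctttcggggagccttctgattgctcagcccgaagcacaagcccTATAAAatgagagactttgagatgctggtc
Pomc, chr12:3954825-3954944, plus strand: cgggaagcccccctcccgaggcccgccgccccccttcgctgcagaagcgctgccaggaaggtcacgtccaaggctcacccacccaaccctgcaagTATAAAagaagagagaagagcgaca
Rln3, chr8:84044980-84045099, minus strand: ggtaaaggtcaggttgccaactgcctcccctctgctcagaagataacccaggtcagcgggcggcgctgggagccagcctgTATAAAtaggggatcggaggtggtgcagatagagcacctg
Sct, chr7:141279134-141279253, minus strand: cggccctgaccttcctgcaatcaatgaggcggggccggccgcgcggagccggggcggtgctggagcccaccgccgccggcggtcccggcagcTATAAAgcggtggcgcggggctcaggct
Cartpt, chr13:99900684-99900803, minus strand: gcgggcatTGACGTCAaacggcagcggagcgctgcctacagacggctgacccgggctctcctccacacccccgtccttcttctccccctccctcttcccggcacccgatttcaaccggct
Ucn, chr5:31138896-31139015, minus strand: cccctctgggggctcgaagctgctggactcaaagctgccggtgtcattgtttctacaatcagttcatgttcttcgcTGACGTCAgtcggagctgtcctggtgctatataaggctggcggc
Gip, chr11:96024425-96024544, plus strand: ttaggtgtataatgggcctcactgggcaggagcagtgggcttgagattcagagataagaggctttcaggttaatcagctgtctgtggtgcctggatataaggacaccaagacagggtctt
Npy, chr6:49822590-49822709, plus strand: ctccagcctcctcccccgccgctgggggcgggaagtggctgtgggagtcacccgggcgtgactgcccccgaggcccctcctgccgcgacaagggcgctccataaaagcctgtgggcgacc
TATAAA began 30 bases before the start in Vip, 25 in Pomc, 40 in Rln3 and 28 in Sct, and TGACGT began 79 bases before it in Vip. TGACGTCA began 112 bases before the start in Cartpt and 44 in Ucn. Genes with TATAAA thus included Sct and Pomc, with reads in both libraries, and Vip and Rln3, listed at 0 in mTEClo.

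Genes that act with the precursors were past 2-fold in both directions. Of 11 measured genes of prohormone processing and secretory granules, 10 were kept, 2 were 2-fold higher and 3 lower in mTEChi, beside 16.1% and 9.35% of all kept genes, with a median log2 change of -0.40 beside 0.03 for all kept genes. The 3 lower genes were Cpe, the carboxypeptidase that trims cut peptides (10.2 RPKM in mTEChi and 60.8 RPKM in mTEClo, -2.74), and the granins Scg2 (4.84 RPKM in mTEChi and 19.3 RPKM in mTEClo, -2.06) and Chgb (4.80 RPKM in mTEChi and 18.9 RPKM in mTEClo, -2.04). Vgf, a precursor of neuroendocrine granules, was higher (10.6 RPKM in mTEChi and 1.56 RPKM in mTEClo, 2.01). The convertase gene Pcsk2 had 1.06 RPKM in mTEChi and was listed at 0 in mTEClo, so it counts as higher only through the pseudocount. Chga, chromogranin A, and Scg5, a chaperone of that convertase, lay within 2-fold at -0.63 and 0.62. Cpe and the granins Scg2 and Chgb therefore differed in the opposite direction from most precursors.

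Of 53 measured peptide receptor and receptor partner genes, 21 were kept, and 10 were 2-fold higher and 4 lower, beside 16.1% higher and 9.35% lower among all kept genes. In mTEClo 30 of the 53 were listed at 0, beside 25.7% of all coding genes. These shares are not matched for level, as 16 of the 53 reached 1 RPKM in mTEChi. Of all coding genes with 5 to 20 expected reads in mTEClo, 61.0% were at 0. Among the 15 kept receptor genes above 0 in both libraries, 4 were higher and 4 lower, beside 11.4% and 9.85% of all such genes. Ramp2, which with Calcrl forms an adrenomedullin receptor, had 3.33 RPKM in mTEChi and 29.7 RPKM in mTEClo (-3.09), while Calcrl itself had 7.38 RPKM in mTEChi and 6.59 RPKM in mTEClo (-0.10). Ramp3, its other partner for adrenomedullin, had 8.77 RPKM in mTEChi and 1.57 RPKM in mTEClo (1.75). The partners of this receptor thus differed in opposite directions. The natriuretic peptide receptors Npr1 (-2.50) and Npr2 (-1.92) and the vasopressin receptor Avpr1a (-1.27, named after its value was seen) were the other lower genes. Vipr1, a receptor for VIP and PACAP, had 4.04 RPKM in mTEChi and 0.176 RPKM in mTEClo (2.06). The neuromedin U receptors Nmur1 and Nmur2, with 2.05 and 1.62 RPKM in mTEChi, and the corticotropin-releasing hormone receptor Crhr1, with 1.84 RPKM in mTEChi, were listed at 0 in mTEClo.

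Of 36 measured peptide genes outside the 37, 30 were kept, and 19 were 2-fold higher and 3 lower in mTEChi, beside the same 16.1% and 9.35% of all kept genes. In mTEClo 18 of the 36 were listed at 0, beside 25.7% of all coding genes, shares that are not matched for level. In mTEChi 30 of the 36 reached 1 RPKM. The kept genes at 0 in mTEClo count as higher by construction, among them Pyy, Ppy, Ins2, Gcg, Guca2a and Rln1. Among the 16 kept above 0 in both libraries, 5 were higher and 3 lower, beside 11.4% and 9.85% of all such genes. Tac4, a further tachykinin gene, had 15.2 RPKM in mTEChi and 1.34 RPKM in mTEClo (2.63), and Guca2b, the uroguanylin precursor, 50.5 RPKM in mTEChi and 4.23 RPKM in mTEClo (3.07). The 3 lower genes, named after their values were seen, were Insl3 (-2.39), Sst (-1.59) and Pthlh (-1.52). Of 11 transcription factors of endocrine cell fate, 5 were kept, 3 were higher and 2 lower, beside 16.1% and 9.35% of all kept genes. Of the 3 higher, 2 were at 0 in mTEClo and so count as higher by construction. Among the 3 kept above 0 in both libraries, 1 was higher and 2 lower, beside 11.4% and 9.85% of all such genes. Insm1, which drives neuroendocrine differentiation, had 40.4 RPKM in mTEChi and 10.07 RPKM in mTEClo (1.65), whereas Isl1 had 4.35 RPKM in mTEChi and 11.4 RPKM in mTEClo (-1.47) and Rfx6 had 0.386 RPKM in mTEChi and 1.49 RPKM in mTEClo (-1.01). Neurog3 and Fev had 2.01 and 1.15 RPKM in mTEChi and were listed at 0 in mTEClo.

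**Figure D4:**
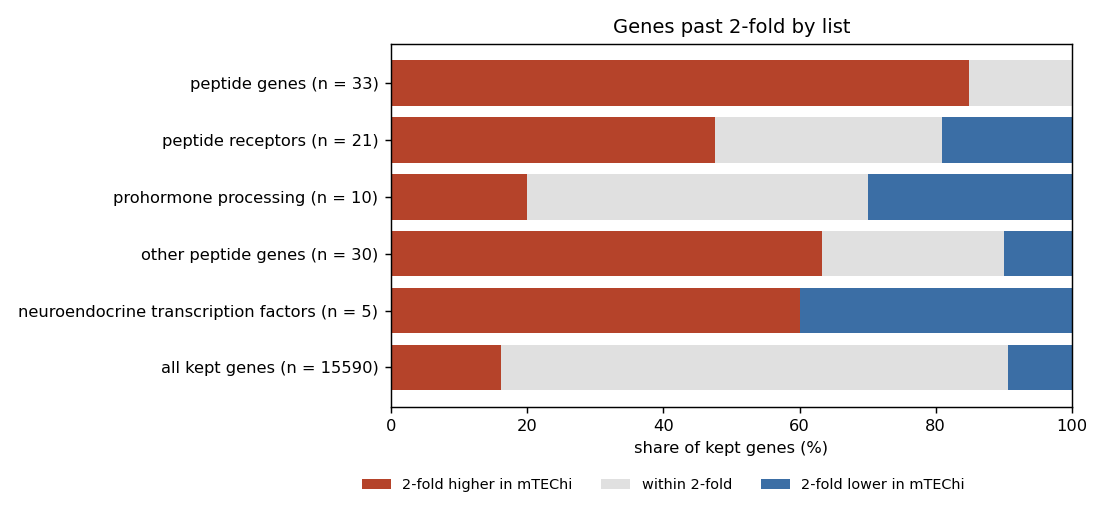
Share (%) of kept genes at least 2-fold higher in mTEChi (red), within 2-fold (grey) and 2-fold lower in mTEChi (blue), by list, with the number of kept genes; genes at 0 in mTEClo count as higher. Peptide genes had 28 of 33 higher and 0 lower, while 3 of 10 prohormone processing genes were lower.

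Other cell markers varied with the sort. All 6 markers of medullary epithelium were above 0 in both libraries, 3 of them 2-fold higher and 2 lower, beside 11.4% and 9.85% of all such genes. Their sum was 5955 RPKM in mTEChi and 3010 RPKM in mTEClo. Of this, H2-Aa, a gene of the sorted molecule, held 4908 RPKM in mTEChi and 1524 RPKM in mTEClo. The other higher genes were Aire and Cd80. The lower genes were the keratins Krt5 (448 RPKM in mTEChi and 770 RPKM in mTEClo) and Krt14 (231 RPKM in mTEChi and 566 RPKM in mTEClo). Dendritic cell and macrophage markers had 5 of 7 higher and 0 lower, beside 16.1% and 9.35% of all kept genes. Cd209a and Flt3 were at 0 in mTEClo and count as higher by construction. Of the 5 above 0 in both libraries, 3 were higher, beside 11.4% of all such genes. The sum of all 7 was 529 RPKM in mTEChi and 139.5 RPKM in mTEClo. Most of that sum is Lyz2, and the other 6 markers summed to 35.5 RPKM in mTEChi and 6.11 RPKM in mTEClo. B cell markers summed to 3.58 RPKM in mTEChi and 0.472 RPKM in mTEClo. Of their 2 kept genes 1 was higher and 0 lower, beside 16.1% and 9.35% of all kept genes. The higher gene, Cd79a, was at 0 in mTEClo and so counts as higher by construction, and Ms4a1 was also at 0 there. Thymocyte markers summed to 7.495 RPKM in mTEChi and 3.88 RPKM in mTEClo. Of their 4 kept genes 1 was higher and 0 lower, beside 16.1% and 9.35% of all kept genes. Their part in the peptide gene changes was not tested.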

How the data were processed

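Poly(A) RNA of 1 mTEChi and 1 mTEClo library was measured. The deposited values are RPKM per RefSeq transcript line, made by the authors. Bowtie 1.0.0, CASAVA, bedtools and build mm9 appear, without roles, in the submitters' processing notes. How reads shared between genes were treated is not stated there. The kit keeps no strand, per the labels' protocols, so antisense and overlapping genes cannot be told apart.

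Of 30794 lines, 30216 were named by a RefSeq table and 180 by GENCODE metadata. A gene's value is its line with the highest mean RPKM. A pseudocount of 1 RPKM understates changes of low genes. Genes were kept where their mean reached 0.5 RPKM, and 5167 genes whose mean reached 10 RPKM set the scaling of 1.21 (0.27 on the log2 scale). The threshold was 2-fold. No test was made.

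Depth was recovered from steps of RPKM times GENCODE transcript length, at about 115000000 reads for mTEChi and 21000000 for mTEClo. Among lines of 1 to 10 reads, 76.1% of 1454 in mTEChi and 66.1% of 988 in mTEClo lay within 0.1 of a whole read. Intervals (95%, exact Clopper-Pearson on recovered reads) cover counting error only, since reads are not independent molecules. Depth recovery, scaling and calls were tested on simulated data with counting error only. These data had no difference of read type, no words shared between genes and no well-expressed gene without reads. They therefore do not bear on those limits. Words of 50 bases, the mTEClo read length, were compared between GENCODE transcripts on both strands.

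Members and lists were chosen with earlier results of these data known. All 37 genes were accounted for, and up to 8 kept genes with the largest change were named in each other list, plus receptors of named genes. Alternatives were other pseudocounts, scalings, filters and gene values. Scripts ran under Python 3.11.15 with scipy 1.17.1, pandas 2.3.3, matplotlib 3.10.9 and numpy 2.4.6.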

Additional observations from a re-analysis of the deposited data

How the results depend on the processing

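Of the 33 kept peptide genes, 28 were 2-fold higher in mTEChi, and this count was 28 with a pseudocount of 0.1 RPKM, 22 with 5 RPKM, 29 under each other scaling, 28 with transcript lines averaged or summed or without the filter, and 20 of 22 with a filter of 5 RPKM. Without genes at 0 in either library it was 12 of 17. With a pseudocount of 0.1 RPKM, 1 gene (Insl5) was 2-fold lower, and 0 were under every other setting in which they were counted. The median log2 change of 2.47 was 4.35 when 0.1 RPKM was added and 1.33 when 5 RPKM was added. It was 2.72 without scaling, 2.60 with the same RPKM sum and 2.81 with the same upper quartile, which moved the median of all kept genes to 0.25, 0.15 and 0.37, against 0.03 in the values reported. It was 2.75 with transcript lines summed, 2.14 without the filter, 3.30 with a filter of 5 RPKM and 1.57 without genes at 0. With genes at 0 set to a floor of 3 reads each and no pseudocount, chosen after seeing the data, it was 4.04. Few coding genes had 1 to 7 reads in mTEClo, so a listed 0 may stand for more than 3 reads. A higher floor would give lower values for the genes at 0. Of all genes past 2-fold, 63.3% were higher, and this share was 74.9% unscaled, 69.6% at equal sums and 80.4% at equal upper quartiles. Across all kept genes the counts were 2508 higher and 1457 lower, and with a pseudocount of 5 RPKM 877 and 648. Of 231 values of single peptide genes under alternatives, 45 moved by more than 0.5 on the log2 scale, 4 moved less but crossed 2-fold (Grp under each other scaling and Cck with a pseudocount of 5 RPKM), and 0 changed direction past 2-fold. The other 182 kept within 0.5 and on their side of 2-fold. Counting those that moved by more than 0.5, 10 values crossed 2-fold. With a pseudocount of 5 RPKM, Cartpt, Vip, Adcyap1, Crh and Ghrh also fell within 2-fold. These genes were listed at 0 in mTEClo, so the pseudocount sets the size of their change. Insl5 crossed with a pseudocount of 0.1 RPKM. No paired analysis was possible because each group has 1 library, and no library could be left out. Depth limits mTEClo most, at with about 115000000 reads in mTEChi and about 21000000 in mTEClo.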
